A study of Mus musculus with 18 samples.

Results

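The genes described here are 8 genes of cholesterol handling, grouped in 2 arms. The synthesis arm held Hmgcs1, Idi1, Fdps and Sqle, which encode enzymes of sterol synthesis, and Insig1, which encodes a sterol-regulated inhibitor of the pathway. The efflux arm held Abca1 and Abcg1, which encode transporters that carry cholesterol out of the cell, and Nr1h3, which encodes the nuclear receptor LXR-alpha. They were found in a read count table of 54232 genes by their Ensembl identifiers, and all 8 were found. All 8 were among the 17074 genes that passed a filter on low counts and were tested.

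The libraries were 18 RNA-seq libraries of DCs from C57BL/6J mice whose genotype is labelled CD11a KO, a deletion carried by every group. CD11a is the product of Itgal and forms the integrin LFA-1 with CD18. DCs of 3 sorted subsets (CD11b+, CD103+ and CD11b+ CD103+ double-positive) came from the small intestinal lamina propria or from the intestinal lymph nodes, with 3 libraries in each of the 6 groups. The protocol in the labels covers both uninfected mice and mice given S. Typhimurium without saying which these were. No wild-type library was analysed here, and neither the age of the mice nor whether replicates were separate animals or pools is given in the labels.

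As background, cells make cholesterol from acetyl-CoA through the mevalonate pathway, whose genes are switched on together by the transcription factor SREBP2. When membrane sterol is low, SCAP escorts SREBP2 from the endoplasmic reticulum to the Golgi for cleavage, and INSIG proteins hold the complex back when sterol is plentiful. LXR-alpha and LXR-beta bind DNA as partners of RXR, respond to oxysterols, and switch on export through ABCA1 and ABCG1. In DCs and macrophages these opposed programmes set membrane cholesterol, and LXR activity has been linked to DC maturation and migration.

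Libraries held 23574292 to 46901985 counted reads. The DC genes Flt3 and Zbtb46 were present in all 6 groups, with group means of 351 to 1032 and 173 to 255 CPM (counts scaled to a common library size by TMM). Both belong to a list of 5 conventional DC genes. Summed, the 5 were at 63610 to 77682 CPM in lamina propria and 18951 to 46266 in lymph node. At an adjusted p under 0.01 and over 2-fold, 3 of the 5 were lower and 0 higher in lymph node in CD103+ DCs. In double-positive DCs 2 were lower and 1 higher, and in CD11b+ DCs 0 passed. Of 5 genes of type 1 conventional DCs, 4 were lower and 0 higher in lymph node in CD103+ DCs. In double-positive DCs 1 was lower and 3 higher, and in CD11b+ DCs 1 was lower and 2 higher. Of 3 genes of type 2 conventional DCs, 2 were higher and 0 lower in lymph node in CD103+ DCs. For this list 2 were lower and 0 higher in double-positive DCs, and 1 was lower and 0 higher in CD11b+ DCs. Of the genes behind the sort, Itgae (CD103) was at 1238 to 1440 CPM in lamina propria CD103+ libraries but at 27.0 to 40.0 CPM in lymph node CD103+ libraries, and Itgam (CD11b) was at 63.2 to 76.4 and 4.85 to 5.76 CPM in the double-positive libraries of lamina propria and lymph node. Itgal reads remained in every library, at 6.45 to 26.6 CPM, and the deleted stretch is not given, so they do not check the genotype. Ddx3y, a gene of the Y chromosome, was at 50.04 to 74.4 CPM in the 9 lamina propria libraries, which had Xist at no more than 0.286 CPM, whereas all 9 lymph node libraries carried Xist (15.4 to 89.1 CPM). Replicate 3 of lymph node CD11b+ and replicate 3 of lymph node double-positive carried both. Sex-linked genes thus differed with tissue, and sex and tissue cannot be told apart here.

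Between tissues, the differences lay mainly in the efflux arm. Its genes were higher in lymph node in 2 of 3 cases for CD11b+ DCs (Abcg1 and Nr1h3) and 3 of 3 for CD103+ and for double-positive DCs. In the synthesis arm 1 of 5 genes passed the test in each subset, and it was Sqle, lower in lymph node, for CD11b+ DCs and Idi1, higher in lymph node, for the other two. A gene was called at an adjusted p under 0.01 with a fold change over 2. Counted in either direction, 3 of the 8 genes were called in CD11b+ DCs against 15.2% of all genes tested, 4 of 8 in CD103+ DCs against 35.0%, and 4 of 8 in double-positive DCs against 32.1%. For the mean of the 3 tissue effects 4 of 8 were called (Abca1, Abcg1, Nr1h3 and Idi1, all higher in lymph node) against 32.7% of all genes. The plot of tissue differences shows each gene.

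**Figure D1:**
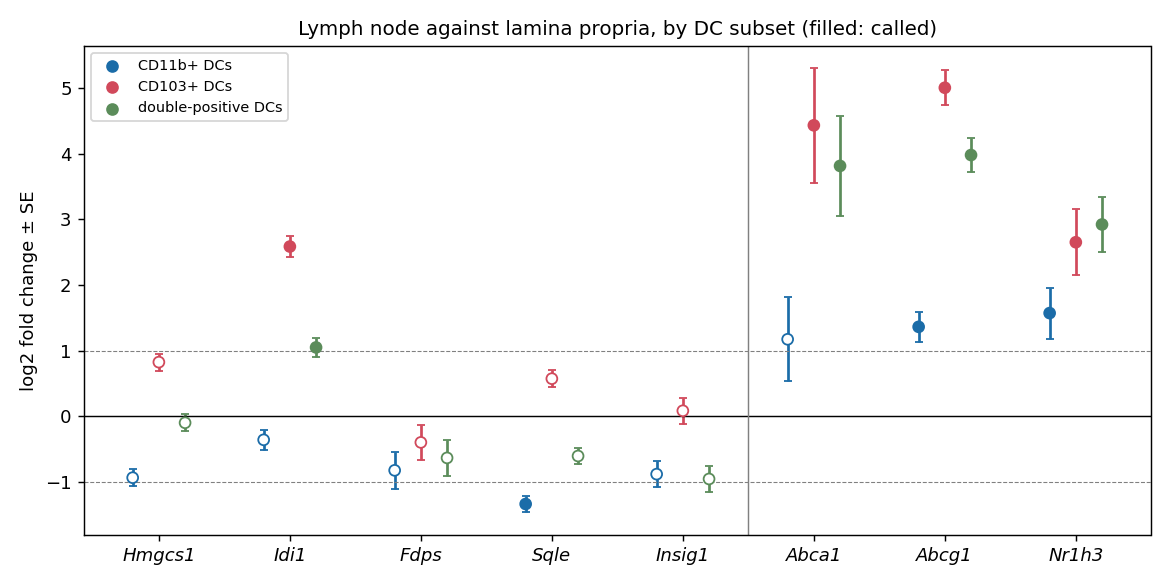
Log2 fold change of lymph node against lamina propria (y axis, error bars 1 SE) of the 8 genes (x axis, synthesis arm left of the vertical line), coloured by DC subset, with filled points for genes called at adjusted p under 0.01 and fold over 2 and dashed lines at 2-fold. Abcg1 is the gene furthest from 0 in CD103+ DCs, at 5.00, and the synthesis genes lie on both sides of 0.

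Between subsets of lymph node, the synthesis arm was the arm that moved together. In CD103+ against CD11b+ DCs 4 of 5 synthesis genes were higher, as were 4 of 5 in double-positive against CD11b+ DCs (3 of 5, without Fdps, when libraries were scaled by total counts in place of TMM). Counting both arms, 6 of 8 genes were called in the former comparison (25.9% of all genes) and 5 of 8 in the latter (16.7%), and 1 of 8, Nr1h3, between double-positive and CD103+ DCs (6.53%). In lamina propria the called subset differences lay mainly in the efflux arm. There 3 of 3 efflux genes were lower in CD103+ than in CD11b+ DCs and 3 of 3 in double-positive than in CD11b+ DCs. The latter call was lost for Abca1 (edgeR adjusted p = 0.041) and Abcg1 (0.039) when only the libraries compared were fitted. Abca1 also lost it in 12 of 18 fits that each left out 1 library, Abcg1 in 3 and Nr1h3 in 0. By sign, 5 of 5 synthesis genes also lay higher in double-positive than in CD11b+ DCs of lamina propria. Their median log2 fold change was 0.88, and 0 of the 5 were called. With Fdps, 4 of 8 genes were called between lamina propria CD103+ and CD11b+ DCs (15.7% of all genes), 3 of 8 between double-positive and CD11b+ (4.81%) and 1 of 8, again Nr1h3, between double-positive and CD103+ (13.6%). In bulk samples, fewer cells of a type and less RNA per cell cannot be told apart.

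**Figure D2:**
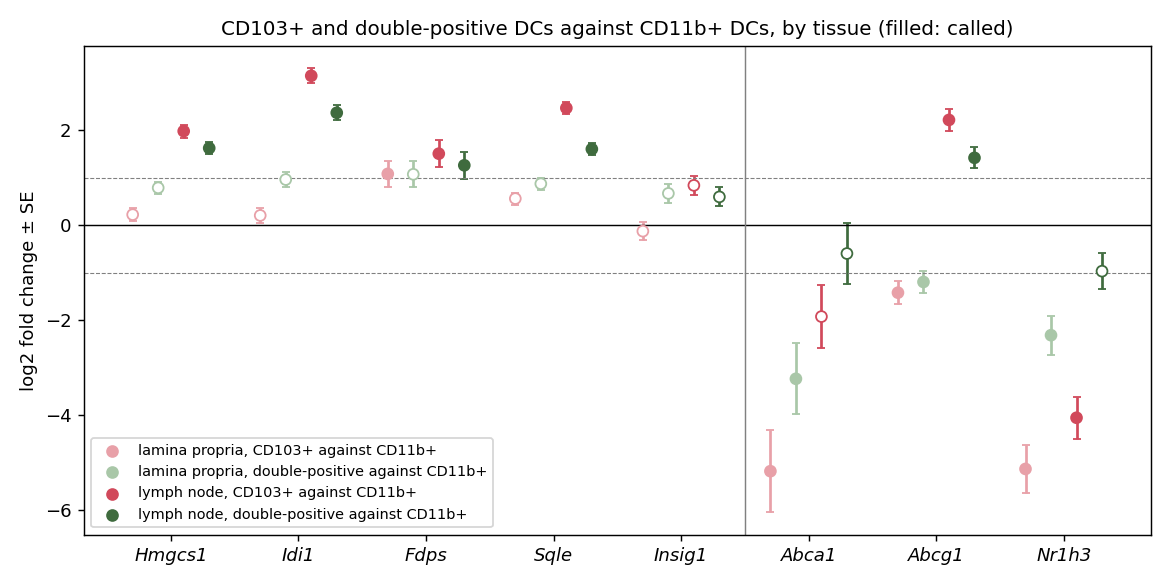
Log2 fold change between DC subsets within each tissue (y axis, error bars 1 SE) of the 8 genes (x axis), with filled symbols for genes called. In lymph node 4 of 5 synthesis genes were called higher in CD103+ than in CD11b+ DCs, and in lamina propria all 3 efflux genes were called lower.

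Hmgcs1 encodes cytosolic HMG-CoA synthase, an enzyme of the early mevalonate pathway. The gene (ENSMUSG00000093930) lies at chr13:119690379-119708260 on the + strand of GRCm38. Its promoter is printed because it was the only one among the synthesis genes with a listed promoter to hold both motifs searched for SREBP2 and its partner NF-Y. The stretch is chr13:119690101-119690350, + strand, of GRCm38.p6, from RefSeq, with the SRE-1 letters and the CCAAT box (ATTGG, read on the other strand) in capitals.
Hmgcs1 promoter: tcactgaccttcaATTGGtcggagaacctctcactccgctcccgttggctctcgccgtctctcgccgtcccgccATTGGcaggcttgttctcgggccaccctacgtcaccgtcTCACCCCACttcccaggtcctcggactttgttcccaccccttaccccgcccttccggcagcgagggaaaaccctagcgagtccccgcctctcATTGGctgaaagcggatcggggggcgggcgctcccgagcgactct
The SRE-1 match TCACCCCAC begins 137 bases before the RefSeq start.

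Hmgcs1 was at 107, 97.6 and 113 CPM in lamina propria CD11b+, 138, 115 and 118 in CD103+ and 182, 160.1 and 207 in double-positive libraries. In lymph node it was at 46.8, 59.5 and 59.8 CPM in CD11b+, 218, 249 and 190.0 in CD103+ and 146, 187 and 179.5 in double-positive libraries. Lymph node CD11b+ libraries were the lowest of all and did not overlap any other group, while lymph node CD103+ overlapped lamina propria double-positive, which in turn overlapped lymph node double-positive. Within lymph node, the gene was higher in CD103+ than in CD11b+ DCs by 1.98 ± 0.13 (log2 fold change ± SE, edgeR adjusted p = 2.7e-09) and in double-positive than in CD11b+ DCs by 1.63 ± 0.13 (adjusted p = 6.3e-08). The tissue difference was -0.93 ± 0.13 in CD11b+ DCs (adjusted p = 3.4e-05) and 0.83 ± 0.13 in CD103+ DCs (adjusted p = 3.5e-05), both under the 2-fold limit and of opposite sign, and it differed between the subsets (F test, adjusted p = 4.1e-06).

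Idi1 encodes isopentenyl-diphosphate isomerase, which interconverts the 5-carbon building blocks of isoprenoids. The gene (ENSMUSG00000058258) lies at chr13:8885501-8892451 on the + strand. Lamina propria values were 24.4, 19.7 and 21.7 CPM in CD11b+, 31.7, 22.9 and 21.4 in CD103+ and 43.3, 39.8 and 45.3 in double-positive libraries. Lymph node values were 14.2, 19.2 and 17.98 CPM in CD11b+, 161, 154 and 140.2 in CD103+ and 73.2, 97.4 and 95.1 in double-positive libraries. The lymph node CD103+ group stood clear of all others, at a mean 8.87 times that of lymph node CD11b+, and the double-positive group of lymph node came next, also without overlap. Among synthesis genes Idi1 alone was called higher in lymph node, by 2.58 ± 0.16 in CD103+ DCs (adjusted p = 3.7e-10) and by 1.05 ± 0.15 in double-positive DCs (adjusted p = 1.3e-05), beside -0.36 ± 0.15 in CD11b+ DCs (adjusted p = 0.077). The tissue effect differed between subsets (adjusted p = 8e-08). Within lymph node Idi1 was higher in CD103+ than in CD11b+ DCs by 3.15 ± 0.16 (adjusted p = 1e-10) and in double-positive than in CD11b+ DCs by 2.37 ± 0.16 (adjusted p = 6.4e-09). The call in double-positive DCs was lost without lymph node double-positive replicate 2 or 3, at 0.97 and 0.98, without both lymph node libraries that carried Xist and Ddx3y together (0.997) and when libraries were scaled by total counts (0.87), the fold being just under 2 in each. In lamina propria, double-positive DCs exceeded CD11b+ DCs by over 2-fold in Idi1 only without lamina propria CD11b+ replicate 1 (1.05) or double-positive replicate 2 (1.01). Of 75-base stretches of its transcripts, 23.6% also occur in other genes, most often in Gm13502, which was counted at 0.341 to 3.23 CPM (group means) with its highest mean in lymph node CD103+ as well.

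Fdps encodes farnesyl diphosphate synthase, which stands at the branch between sterols and other isoprenoids. The gene (ENSMUSG00000059743) lies at chr3:89093588-89101959 on the - strand, and its values are uncertain because 26.7% of its exon bases are shared with Gm43738 and 23.5% of its 75-base stretches occur in other genes. Gm43738 was counted at 0 in every group. Gm3571, which holds some of these stretches, was counted at 0.814 to 3.25 CPM (group means), with its lowest mean in lymph node CD11b+ as for Fdps. Its lamina propria values were 4.95, 3.07 and 3.22 CPM in CD11b+, 7.60, 7.44 and 8.81 in CD103+ and 7.26, 6.34 and 10.1 in double-positive libraries. Its lymph node values were 1.40, 2.47 and 2.50 CPM in CD11b+, 4.98, 6.87 and 6.27 in CD103+ and 4.10, 6.42 and 4.75 in double-positive libraries. Every group overlapped its neighbour in the order of means except lymph node CD11b+, whose libraries were the lowest of the 18. Fdps was higher in CD103+ than in CD11b+ DCs in lamina propria (1.08 ± 0.27, adjusted p = 0.0048) and in lymph node (1.51 ± 0.28, adjusted p = 0.00023), and in lymph node also in double-positive than in CD11b+ DCs (1.26 ± 0.28, adjusted p = 0.0014). No tissue difference of Fdps was called, with -0.82 ± 0.28, -0.40 ± 0.27 and -0.63 ± 0.27 in CD11b+, CD103+ and double-positive DCs. The lamina propria call was lost in 5 of 18 fits that each left out 1 library (adjusted p of 0.01 to 0.027 in them) and with only the libraries compared. The lymph node call for double-positive DCs was lost without lymph node CD11b+ replicate 1 (adjusted p = 0.012), without double-positive replicate 2 (0.011) and under total counts (0.89, adjusted p = 0.014). In lamina propria the difference between double-positive and CD11b+ DCs (1.07 ± 0.27) had an adjusted p of 0.014. It was called with the replicate number as a block within tissue (adjusted p = 0.0062), by DESeq2 (0.0012), without lamina propria CD11b+ replicate 1 (0.0092) and without lymph node CD11b+ replicate 1 (0.0084).

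Sqle encodes squalene epoxidase, which carries out the first oxygenation step of sterol synthesis. The gene (ENSMUSG00000022351) lies at chr15:59315077-59331192 on the + strand, and none of its exon bases or 75-base stretches is shared with another gene. Lamina propria CD11b+ libraries were at 119.8, 120.2 and 103 CPM, CD103+ at 178, 170.2 and 159 and double-positive at 202, 175 and 253. Lymph node CD11b+ libraries were at 46.0, 40.4 and 49.8 CPM, CD103+ at 251, 273 and 231 and double-positive at 119, 149 and 147. The 3 lymph node CD11b+ libraries lay below all others, and the highest group, lymph node CD103+, overlapped only lamina propria double-positive. Sqle was the only synthesis gene called lower in lymph node, by 1.33 ± 0.13 on the log2 scale in CD11b+ DCs (log2 fold change -1.33, adjusted p = 6e-07). The tissue difference was 0.57 ± 0.13 in CD103+ DCs (adjusted p = 0.00077) and -0.60 ± 0.13 in double-positive DCs (adjusted p = 0.00055), under the 2-fold limit in both, and it differed between subsets (adjusted p = 1e-06). In lymph node the gene was higher in CD103+ than in CD11b+ DCs by 2.47 ± 0.13 (adjusted p = 1.8e-10) and in double-positive than in CD11b+ DCs by 1.61 ± 0.13 (adjusted p = 5.1e-08).

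Insig1 encodes a membrane protein of the endoplasmic reticulum that retains the SCAP-SREBP complex and is itself an SREBP target. The gene (ENSMUSG00000045294) lies at chr5:28071363-28078662 on the + strand. The stretch of its promoter before the start, chr5:28071162-28071362 (+ strand, GRCm38.p6, RefSeq), is shown for comparison with Hmgcs1. It holds a single CCAAT box, in capitals as ATTGG, whose first base lies 216 bases before the RefSeq start (downstream of the gene start above, where the printed stretch ends), and no SRE-1 letters in this window.
Insig1 promoter: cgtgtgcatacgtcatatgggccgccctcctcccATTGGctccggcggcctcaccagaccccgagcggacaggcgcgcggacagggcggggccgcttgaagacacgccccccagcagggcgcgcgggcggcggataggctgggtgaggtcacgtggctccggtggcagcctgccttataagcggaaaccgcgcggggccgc

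Insig1 values were 41.8, 33.4 and 35.0 CPM in lamina propria CD11b+, 35.6, 32.2 and 33.4 in CD103+ and 60.4, 40.4 and 74.8 in double-positive libraries. In lymph node they were 19.8, 15.7 and 24.4 CPM in CD11b+, 32.7, 42.5 and 32.1 in CD103+ and 26.6, 34.0 and 30.1 in double-positive libraries. Lymph node CD11b+ was again the lowest group without overlap, and each of the other groups overlapped its neighbour in the order of means. No pairwise difference of Insig1 was called in the main fit. The tissue difference was -0.88 ± 0.20 in CD11b+ (adjusted p = 0.0021), 0.09 ± 0.20 in CD103+ (adjusted p = 0.73) and -0.95 ± 0.20 in double-positive DCs (adjusted p = 0.00051), and lymph node CD103+ exceeded CD11b+ DCs by 0.84 ± 0.20 (adjusted p = 0.0018), all under 2-fold. The tissue effect differed between subsets at an adjusted p of 0.0089, but this call was lost in 16 of 18 fits that each left out 1 library and with the replicate block (adjusted p = 0.011). Leaving out lymph node CD11b+ replicate 3 brought the CD11b+ tissue difference over 2-fold, to -1.05, and that of double-positive DCs reached -1.16 without lamina propria double-positive replicate 2 and -1.05 without lymph node double-positive replicate 2. Under total counts the double-positive tissue difference was called, at -1.13 (adjusted p = 9.2e-05), and the difference of the tissue effect between subsets was not (adjusted p = 0.019). Insig1 was also called without both lymph node libraries that carried Xist and Ddx3y together. It was then higher in lymph node CD103+ than in CD11b+ DCs (1.007, edgeR adjusted p = 0.0017) and lower in lymph node in CD11b+ DCs (-1.05, adjusted p = 0.0024).

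**Figure D3:**
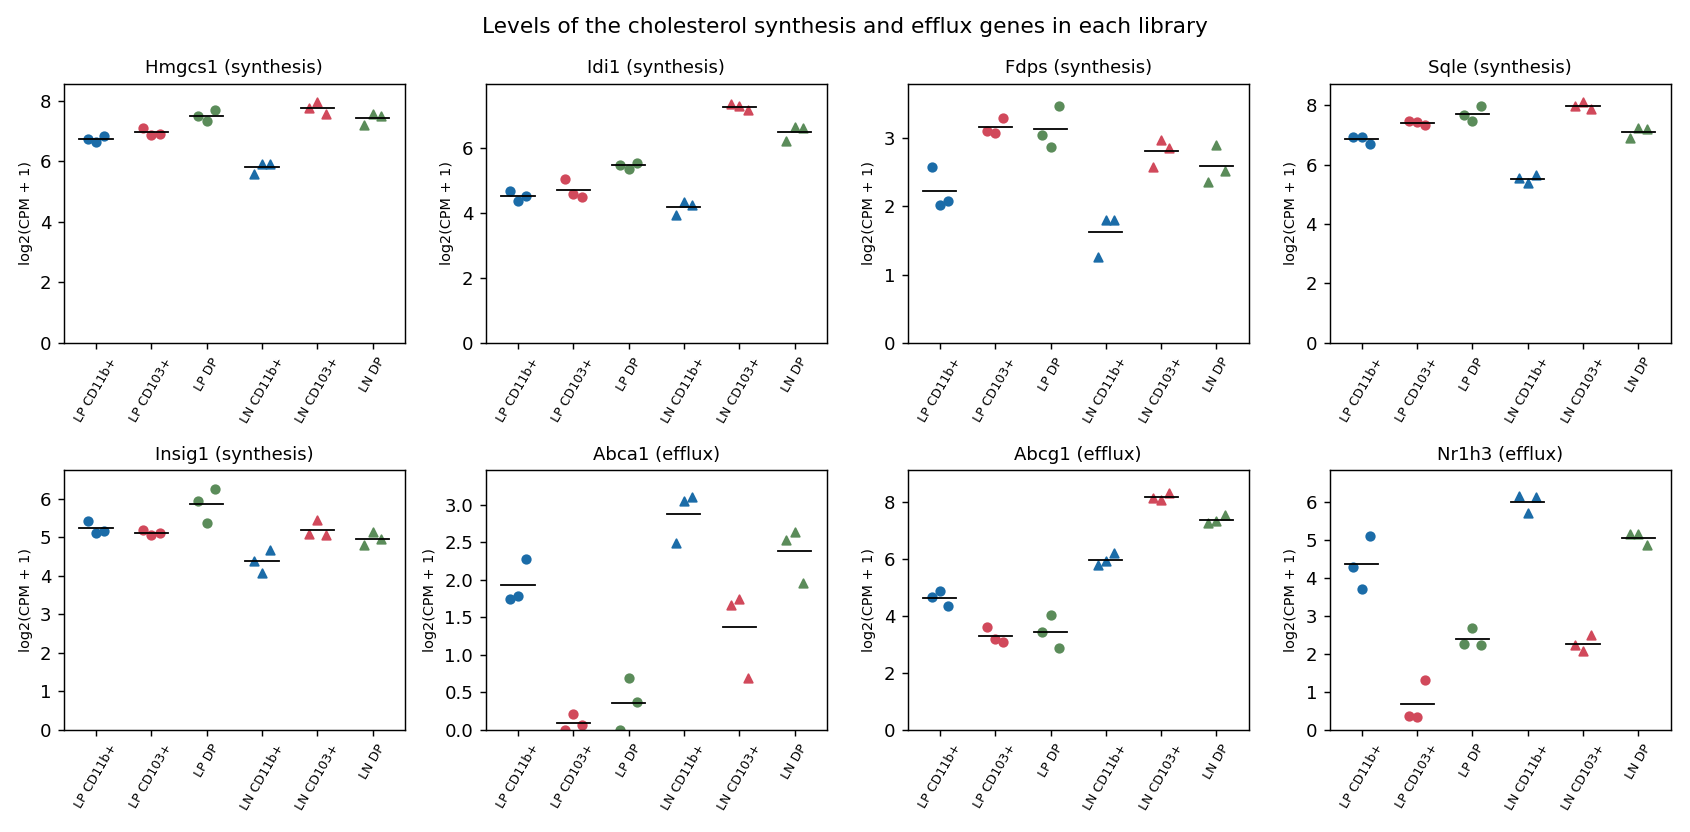
Log2(CPM + 1) of the 8 genes (y axes, 1 panel per gene, each with its own range from 0) in each of the 18 libraries by group (x axes), with circles for lamina propria (LP), triangles for lymph node (LN), DP for double-positive and bars for group means. The 3 Abcg1 values of lymph node CD103+ DCs, 277, 266 and 317 CPM, are the highest of that gene, and lymph node CD11b+ DCs are lowest for all 5 synthesis genes.

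Abca1 encodes a transporter that loads cholesterol and phospholipid onto lipid-poor apolipoprotein A-I. The gene (ENSMUSG00000015243) lies at chr4:53030787-53159895 on the - strand. Its promoter is printed because it alone among the efflux genes with a listed promoter matched the LXR motif searched, a DR4 element of 2 NGGTNA half-sites 4 bases apart. The stretch is chr4:53159896-53160145, - strand, of GRCm38.p6 (RefSeq), with the element in capitals, which reads as a DR4 on the opposite strand and begins 67 bases before the start.
Abca1 promoter: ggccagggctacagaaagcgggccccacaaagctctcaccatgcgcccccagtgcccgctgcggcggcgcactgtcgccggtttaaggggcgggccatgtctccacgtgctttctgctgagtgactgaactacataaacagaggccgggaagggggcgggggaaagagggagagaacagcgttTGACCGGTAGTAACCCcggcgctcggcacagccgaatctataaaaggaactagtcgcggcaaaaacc

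Abca1 was the gene with the fewest reads, at 2.33, 2.45 and 3.85 CPM in lamina propria CD11b+, 0, 0.151 and 0.0408 in CD103+ and 0, 0.610 and 0.286 in double-positive libraries. In lymph node it was at 4.63, 7.27 and 7.63 CPM in CD11b+, 2.16, 2.36 and 0.614 in CD103+ and 4.80, 5.20 and 2.90 in double-positive libraries. The lamina propria CD103+ libraries held 0, 7 and 1 reads and the double-positive libraries 0, 18 and 8, so that the fold changes against these groups rest on few reads. The lymph node libraries of CD103+ and double-positive DCs did not overlap the lamina propria libraries of the same subset, though the lowest lymph node CD103+ value (0.614) was close to the highest lamina propria double-positive value (0.610). Abca1 was higher in lymph node by 4.43 ± 0.87 in CD103+ DCs (adjusted p = 3e-04) and 3.81 ± 0.76 in the double-positive subset (adjusted p = 0.00035), with 1.17 ± 0.64 in CD11b+ DCs (adjusted p = 0.17). In lamina propria it was lower than in CD11b+ DCs in CD103+ DCs (-5.18 ± 0.87, adjusted p = 0.00015) and in double-positive DCs (-3.23 ± 0.75, adjusted p = 0.0074), the latter a call lost in 12 of 18 fits that each left out 1 library. In lymph node CD103+ against CD11b+ DCs the difference was -1.92 ± 0.66 (adjusted p = 0.022), and it was called under total counts (-2.35, adjusted p = 0.0064) and by DESeq2 (-1.88, adjusted p = 0.0033), with only the libraries compared (-1.89, adjusted p = 0.0061) and without lamina propria double-positive replicate 1 (-1.92, adjusted p = 0.0058). The tissue effect was not called as different between subsets (adjusted p = 0.03).

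Abcg1 encodes a transporter that passes cholesterol to high-density lipoprotein particles. The gene (ENSMUSG00000024030) lies at chr17:31057675-31117988 on the + strand, and none of its exon bases is shared with another gene. Lamina propria libraries were at 24.4, 28.0 and 19.4 CPM in CD11b+, 11.2, 8.15 and 7.51 in CD103+ and 9.83, 15.2 and 6.25 in double-positive DCs. Lymph node libraries were at 53.2, 58.9 and 72.4 CPM in CD11b+, 277, 266 and 317 in CD103+ and 151, 159 and 184 in the double-positive subset. All 9 lymph node libraries lay above the 9 lamina propria libraries, and only the double-positive and CD103+ groups of lamina propria overlapped. From lowest to highest group the mean differed 32.0 times. Abcg1 was higher in lymph node by 1.36 ± 0.23 in CD11b+ (adjusted p = 0.00018), 5.00 ± 0.26 in CD103+ (adjusted p = 7e-11) and 3.98 ± 0.25 in double-positive DCs (adjusted p = 9.6e-10). These tissue effects differed between subsets (adjusted p = 5.7e-07).

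The order of the subsets for Abcg1 was reversed between tissues. In lamina propria it was lower in CD103+ than in CD11b+ DCs (-1.42 ± 0.24, adjusted p = 0.00016) and lower in double-positive than in CD11b+ DCs (-1.19 ± 0.24, adjusted p = 0.0026). In lymph node Abcg1 was higher in CD103+ than in CD11b+ DCs by 2.22 ± 0.23 (adjusted p = 4.3e-07) and in double-positive than in CD11b+ DCs by 1.42 ± 0.22 (adjusted p = 7.1e-05). The lamina propria call for double-positive DCs was lost in 3 of 18 fits, those without lamina propria CD11b+ replicate 2 or double-positive replicate 1 or 3.

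Nr1h3 encodes LXR-alpha, the receptor that switches on both transporters. The gene (ENSMUSG00000002108) lies at chr2:91184061-91202834 on the - strand. Lamina propria values were 18.5, 12.2 and 33.8 CPM in CD11b+, 0.283, 0.258 and 1.47 in CD103+ and 3.80, 5.42 and 3.71 in double-positive libraries. Values in lymph node were 70.7, 51.4 and 69.7 CPM in CD11b+, 3.73, 3.21 and 4.60 in CD103+ and 34.8, 34.8 and 28.5 in double-positive libraries. In each tissue CD11b+ libraries were highest and CD103+ lowest without overlap between any subsets, and within each subset lymph node lay above lamina propria without overlap. Nr1h3 was higher in lymph node by 1.57 ± 0.39 in CD11b+ (adjusted p = 0.0042), 2.65 ± 0.50 in CD103+ (adjusted p = 0.00022) and 2.92 ± 0.42 in double-positive DCs (adjusted p = 1.4e-05). The CD11b+ call was lost in 4 of 18 fits, those without replicate 1 or 2 of lamina propria CD11b+ or replicate 1 or 3 of lymph node CD11b+ (adjusted p of 0.015 to 0.022), and without both lymph node libraries that carried Xist and Ddx3y together (adjusted p = 0.02).

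Between subsets Nr1h3 was lower in CD103+ than in CD11b+ DCs by 5.13 ± 0.50 on the log2 scale in lamina propria (log2 fold change -5.13, adjusted p = 4.2e-07) and by 4.05 ± 0.44 in lymph node (-4.05, adjusted p = 7.6e-07). Double-positive DCs lay between them, higher than CD103+ DCs by 2.82 ± 0.50 in lamina propria (adjusted p = 0.00027) and by 3.09 ± 0.43 in lymph node (adjusted p = 5e-05). In lamina propria they were lower than CD11b+ DCs (-2.31 ± 0.41, adjusted p = 0.0011), and in lymph node the difference was -0.97 ± 0.38 (adjusted p = 0.051), which total counts made a call (-1.33, adjusted p = 0.0086). For Nr1h3 the tissue effect was not called as different between subsets (adjusted p = 0.12, and 0.0054 without lamina propria CD103+ replicate 3). The lymph node CD103+ group thus combined the highest mean of Abcg1, 286 CPM, with one of the lowest of Nr1h3, 3.85 CPM.

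Levels were compared between genes only per length, as CPM per kilobase of merged exons. In lymph node CD103+ DCs the level was 47.7 for Hmgcs1, 45.4 for Sqle, 43.4 for Idi1 and 39.2 for Abcg1, so that this transporter stood near the 3 enzymes. In lamina propria CD103+ DCs the same 4 genes were at 26.9, 30.5, 7.23 and 1.23. Nr1h3 ranged from 0.266 in lamina propria CD103+ to 25.4 in lymph node CD11b+ DCs, where it was above all 5 synthesis genes (0.504 to 12.1). Abca1 did not exceed 0.628 in any group mean and was below Abcg1 in all 6 groups.

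Arm levels summarise each library by the mean, over the genes of an arm, of log2(CPM + 1) centred on each gene's mean over the 18 libraries. They are given as descriptions, without a test. The synthesis level was -0.34 ± 0.14 (SD, n = 3) for CD11b+, 0.01 ± 0.10 for CD103+ and 0.48 ± 0.25 for double-positive DCs of lamina propria, and in lymph node -1.15 ± 0.16, 0.75 ± 0.13 and 0.26 ± 0.20 in the same order. The efflux level was 0.17 ± 0.24, -2.13 ± 0.12 and -1.42 ± 0.35 in lamina propria and 1.47 ± 0.18, 0.45 ± 0.09 and 1.46 ± 0.13 in lymph node. Lymph node CD11b+ DCs thus had the lowest synthesis level and, with lymph node double-positive DCs, the highest efflux level, a difference of synthesis minus efflux of -2.62 ± 0.05. Lamina propria CD103+ and double-positive DCs stood at the other end, at 2.14 ± 0.17 and 1.90 ± 0.59. Lymph node CD103+ and double-positive DCs had both arms above the mean. In lymph node CD103+ DCs the efflux level rested on Abcg1, which ranked 1 of the 6 groups by mean CPM. Abca1 (1.71 CPM) ranked 4 and Nr1h3 (3.85 CPM) ranked 5 there. In lymph node CD103+ DCs the difference was 0.29 ± 0.12, but it was -0.53 without Nr1h3 and 1.41 without Abcg1.

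**Figure D4:**
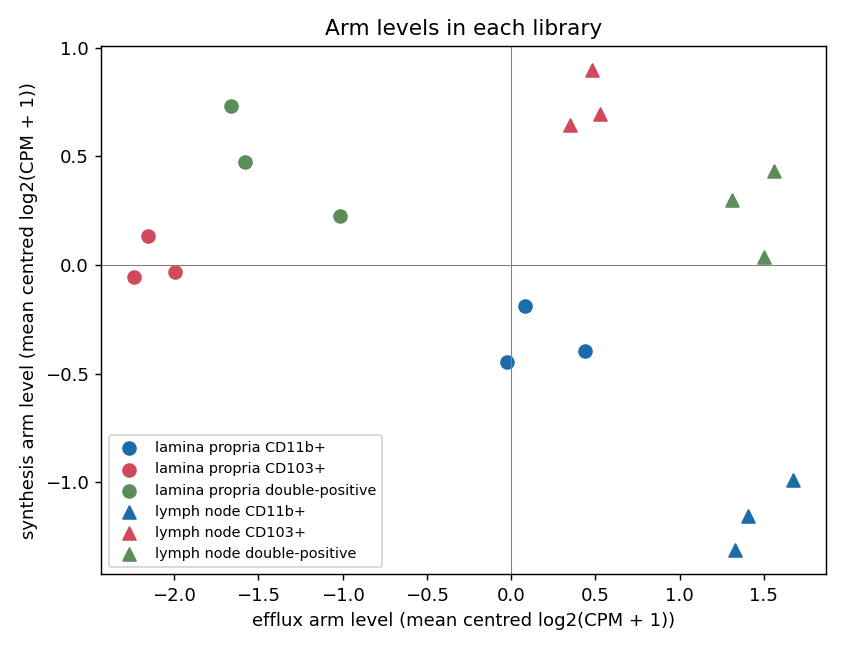
Synthesis arm level (y axis) against efflux arm level (x axis) for the 18 libraries, both as the mean over the arm of log2(CPM + 1) centred per gene, with circles for lamina propria and triangles for lymph node. Lymph node CD11b+ libraries lie at the corner of low synthesis (-1.31 to -0.99) and high efflux (1.33 to 1.67).

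The genes of an arm did not all vary alike over the 18 libraries, which fall into 6 groups and so are not independent points. On the log2(CPM + 1) scale Pearson's r was 0.935 between Hmgcs1 and Sqle but 0.274 between Idi1 and Insig1. For the efflux arm r was 0.905 between Abca1 and Nr1h3 and 0.403 between Abcg1 and Nr1h3. Across arms Abcg1 and Idi1 had r = 0.687, while Nr1h3 and Fdps had r = -0.809. Idi1 was the only synthesis gene whose r with Abcg1 exceeded the 0.403 between Nr1h3 and Abcg1. Both Idi1 and Abcg1 were highest in lymph node CD103+ DCs. With the other synthesis genes the r of Abcg1 was 0.204 (Hmgcs1), -0.0121 (Sqle), -0.309 (Fdps) and -0.404 (Insig1). With Abca1 it was 0.586.

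By median log2 fold change, the synthesis arm lay at -0.88, 0.57 and -0.60 for the tissue difference in CD11b+, CD103+ and double-positive DCs, beside medians of 0.03, 0.04 and 0.07 over all genes tested. The efflux arm lay at 1.36, 4.43 and 3.81. For the lymph node subsets the synthesis median was 1.98 in CD103+ and 1.61 in double-positive DCs against CD11b+ DCs, beside -0.13 and -0.08 over all genes. Under scaling by total counts in place of TMM the median of all genes moved by -0.43 and -0.37 in these comparisons of lymph node subsets, and the share of called genes that were higher fell from 39.6% to 19.5% and from 41.3% to 19.3%. Under that scaling Hmgcs1 (1.55), Idi1 (2.72), Fdps (1.08) and Sqle (2.04) were still called higher in lymph node CD103+ than in CD11b+ DCs. In double-positive against CD11b+ DCs Hmgcs1 (1.26), Idi1 (2.00) and Sqle (1.24) were still called, Fdps (0.89) was not, and Nr1h3 (-1.33) was called lower. The tissue comparisons moved by 0.14, -0.22 and -0.17 in CD11b+, CD103+ and double-positive DCs.

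Differences of the tissue effect between subsets, judged by the F test, were called for 5 of the 8 genes (31.5% of all genes), namely Hmgcs1, Idi1, Sqle, Insig1 and Abcg1. The Insig1 call was lost in 16 of 18 fits that each left out 1 library, under total counts and with either replicate block. In Hmgcs1 and Sqle the tissue difference was negative in CD11b+ DCs and positive in CD103+ DCs. In Abcg1 it was positive in all 3 subsets and differed in size.

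Other genes of the sterol synthesis pathway, 16 of them, were tested beside the 8. In lymph node 13 of 16 were higher in CD103+ than in CD11b+ DCs and 9 of 16 in double-positive than in CD11b+ DCs, with none lower and medians of 1.63 and 1.22, beside 10.2% and 6.92% of all genes tested that were higher. Scaled by total counts, these numbers were 10 and 4. In lamina propria 2 were higher in CD103+ than in CD11b+ DCs, 1 in double-positive than in CD11b+ DCs and 1 in double-positive than in CD103+ DCs, and none was called between double-positive and CD103+ DCs of lymph node. By sign, 15 of 16 lay higher in double-positive than in CD11b+ DCs of lamina propria, with a median log2 fold change of 0.74. Between tissues 0 genes were higher and 2 lower in CD11b+ DCs, 6 higher and 0 lower in CD103+ DCs, 1 higher and 3 lower in double-positive DCs and 0 higher and 2 lower over the mean. Dhcr7, an enzyme of the last steps, was among the lower genes, at -1.22 ± 0.08 (adjusted p = 5.6e-10) over the mean of the subsets. Of all genes tested, 10.3% were higher and 4.93% lower in lymph node in CD11b+ DCs. The shares were 19.8% and 15.1% in CD103+ DCs and 18.6% and 13.6% in double-positive DCs. In lamina propria 5.07%, 1.14% and 8.10% of all genes were higher in the subset comparisons, in the order given above. Under total counts 4 of the 16 genes in place of 6 were higher in lymph node in CD103+ DCs.

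**Figure D5:**
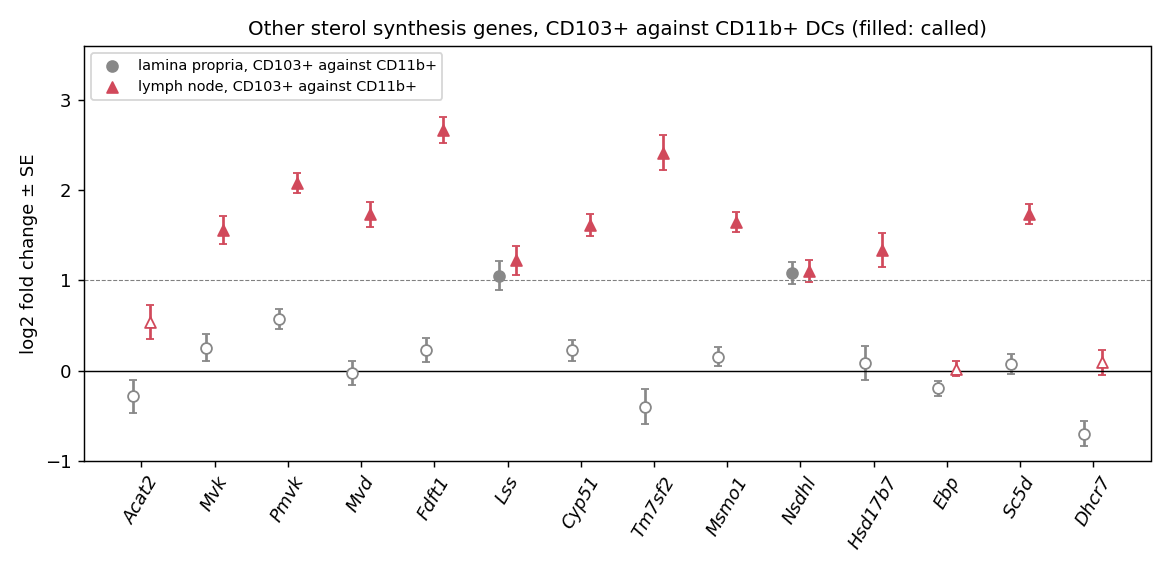
Log2 fold change of CD103+ against CD11b+ DCs (y axis, error bars 1 SE) of 14 of the 16 other sterol synthesis genes (x axis), with circles for lamina propria, triangles for lymph node, filled symbols for genes called and a dashed line at 2-fold. In lymph node 11 of the 14 plotted genes were called higher, and in lamina propria 2 (Lss and Nsdhl).

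Of the 8 tested genes of SREBP control and sterol uptake, 1 was called over the mean tissue effect, Stard4, a sterol carrier, at -1.26 ± 0.09 (adjusted p = 1.7e-09). Srebf2, the gene of SREBP2, stayed within 2-fold in every comparison, with a mean tissue effect of 0.21 ± 0.07, and so did Srebf1 at -0.57 ± 0.06. Of this list 2 genes were lower in lymph node in CD11b+ DCs, none was called in CD103+ DCs and 1 was lower in double-positive DCs. In lamina propria 1 was higher in CD103+ than in CD11b+ DCs, none was called between double-positive and CD11b+ DCs, and 1 was higher and 1 lower in double-positive than in CD103+ DCs. In lymph node 2 were higher in CD103+ and 1 in double-positive than in CD11b+ DCs, and none was called between double-positive and CD103+ DCs. The direction depended on the scaling, since under total counts 0 were higher and 1 lower in CD103+, and 1 higher and 1 lower in double-positive, than in CD11b+ DCs of lymph node. With TMM, 4.93% and 13.6% of all genes tested were lower in lymph node in CD11b+ and double-positive DCs. In lamina propria 5.07% were higher in CD103+ than in CD11b+ DCs. Between double-positive and CD103+ DCs there, 8.10% were higher and 5.52% lower. In lymph node 10.2% were higher in CD103+ and 6.92% in double-positive than in CD11b+ DCs.

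Of 11 further genes of LXR partners and targets, 3 were higher and 2 lower in lymph node over the mean tissue effect (2 higher and 3 lower under total counts), a mixed direction beside 3 of 3 higher for Abca1, Abcg1 and Nr1h3. Mylip, an LXR target that encodes an E3 ubiquitin ligase, was higher by 1.52 ± 0.19, 1.37 ± 0.19 and 3.51 ± 0.20 in CD11b+, CD103+ and double-positive DCs, and Arl4c was higher by 1.49 ± 0.06 over the mean. Pltp (-1.78 ± 0.20) and Scd2 (-1.66 ± 0.09) were lower. Apoe, also an LXR target, followed Nr1h3 by subset, lower in CD103+ than in CD11b+ DCs by 4.52 ± 0.34 (log2 fold change -4.52) in lamina propria and by 4.32 ± 0.34 (-4.32) in lymph node, but was lower in lymph node than in lamina propria in CD11b+ DCs (-1.23 ± 0.30, adjusted p = 0.0034). Nr1h2, the gene of LXR-beta, had a mean tissue effect of 0.40 ± 0.04, under 2-fold. In CD11b+, CD103+ and double-positive DCs 1, 3 and 3 of the 11 were higher and 4, 3 and 2 lower in lymph node. The shares of all genes tested were 10.3%, 19.8% and 18.6% higher and 4.93%, 15.1% and 13.6% lower. In lamina propria 4 of the 11 were lower in CD103+ and 1 lower in double-positive than in CD11b+ DCs. There 3 were higher and 1 lower in double-positive than in CD103+ DCs. In lymph node 3 were higher and 3 lower in CD103+ than in CD11b+ DCs, 4 higher and 2 lower in double-positive than in CD11b+ DCs and 3 higher in double-positive than in CD103+ DCs. Under total counts both comparisons with lymph node CD11b+ DCs had 2 higher and 3 lower. With TMM, 10.6% of all genes were lower in CD103+ and 3.67% in double-positive than in CD11b+ DCs of lamina propria. Between double-positive and CD103+ DCs there, 8.10% were higher and 5.52% lower. In lymph node 10.2% were higher and 15.6% lower in CD103+ than in CD11b+ DCs. The shares were 6.92% and 9.82% for double-positive against CD11b+ DCs, and 4.69% were higher in double-positive than in CD103+ DCs.

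Over the mean tissue effect 19.7% of all genes tested were higher and 13.03% lower in lymph node, with a median of 0.05, and the medians of the lists were -0.49 for SREBP control and uptake, -0.48 for LXR partners and targets, 1.76 for oxysterol-forming enzymes, -0.13 for storage and transport and -1.05 for fatty acid synthesis. Among lists further from the 8 genes, 2 of 3 tested oxysterol-forming enzymes were higher in lymph node over the mean tissue effect. They were Cyp7b1 (1.76 ± 0.24, adjusted p = 5.5e-06) and Ch25h (3.57 ± 0.50, adjusted p = 7.2e-06), the latter named after its values were seen because it makes an LXR ligand. Ch25h did not exceed a group mean of 1.87 CPM. Of 13 genes of cholesterol storage and lysosomal transport 2 were higher and 4 lower (0 and 4 under total counts), among the latter Soat1, which esterifies cholesterol (-1.96 ± 0.10), Scarb1, a lipoprotein receptor (-1.84 ± 0.09), Lipa, the lysosomal acid lipase (-1.70 ± 0.08), and Nceh1, a cholesterol ester hydrolase (-1.49 ± 0.15). Of 9 genes of fatty acid synthesis 1 was higher and 5 lower, among them the elongase Elovl6 (-2.23 ± 0.17), the desaturases Fads1 (-1.95 ± 0.10) and Fads2 (-1.50 ± 0.17) and fatty acid synthase, Fasn (-1.50 ± 0.10). In the single comparisons, these 3 lists had between 0 and 8 genes called. The most were in the storage list between tissues of CD103+ DCs (3 higher and 5 lower in lymph node, beside 19.8% and 15.1% of all genes).

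Genes whose log2(CPM + 1) followed an arm level most closely were sought among 9910 genes with a mean of at least 10 CPM in some group, over the 18 libraries and with no test. For the synthesis arm they were Msmo1 (r = 0.977), Cyp51 (0.957), Sc5d (0.950), Slc22a21 (0.950) and Fdft1 (0.944), of which 4 are on the list of sterol synthesis genes. For the efflux arm they were Lysmd2 (0.982), Tmod2 (0.976), St8sia6 (0.974), Tmem176a (0.971) and Sdc4 (0.971), none of which is on any sterol list used here.

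The promoter table held 3 of the 5 synthesis genes (Hmgcs1, Idi1 and Insig1) and 2 of the 3 efflux genes (Abca1 and Nr1h3), in windows of 250 bases before to 50 after the start, and both strands were searched. CCAAT occurred in 3 of 3 synthesis promoters and in 37.4% of all 32851 promoter windows. It occurred in 12 of 16 windows of the other sterol synthesis genes and in 9 of 12 of cholesterol storage and lysosomal transport. The SRE-1 letters TCACNCCAC occurred in Hmgcs1 and in 1.24% of all windows. They occurred in 0 of 16 windows of the other sterol synthesis genes and in 1 of 12 of the storage list. The DR4 letters occurred in Abca1 and in 0.718% of all windows. They occurred in 0 of 12 windows of the other LXR partners and targets, 1 of 11 of SREBP control and uptake and 1 of 9 of fatty acid synthesis. A match describes the letters only.

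Marker genes of other cells moved with these comparisons. The summed level of 10 macrophage genes was 1192 to 2344 CPM in lamina propria CD11b+, 46.6 to 63.7 in CD103+ and 467 to 505 in double-positive libraries, and 529 to 936, 14.4 to 20.6 and 126 to 147 CPM in lymph node, an order of subsets shared with Nr1h3. All 10 were lower in lamina propria CD103+ than in CD11b+ DCs and 9 of 10 in lymph node, and Fcgr1 was at 0 in the 3 lymph node CD103+ libraries. Between tissues the same list went the other way from Nr1h3, with 7 of 10 lower and 1 higher in lymph node over the mean. The summed level of 9 T cell genes was 7.36 to 31.1 CPM in lamina propria and 545 to 1017 in lymph node, with 9 of 9 higher in lymph node and 0 of 9 called between lymph node subsets. Of 9 tested DC maturation genes 7 were higher in lymph node over the mean, and their summed level was 1007 to 2723 CPM in lamina propria, 4074 to 6449 in lymph node CD11b+ and 21822 to 28110 in the other lymph node groups, which were also those with the highest Abcg1 and Idi1. Plasma cell genes, 4 of 4, and the tested monocyte genes, 3 of 3, were lower in lamina propria CD103+ and double-positive than in CD11b+ DCs, as were 4 of 4 plasma cell and 2 of 3 monocyte genes in lymph node. Of 10 tested epithelial genes 7 were lower in lymph node over the mean, and their summed level was 63.7 to 828 CPM in lamina propria and 26.8 to 71.2 in lymph node. Of 12 proliferation genes 9 were lower in lymph node over the mean, and in lymph node 9 were lower in CD103+ and 11 in double-positive than in CD11b+ DCs, with summed levels of 293 to 423, 279 to 347 and 609 to 816 CPM in the same order. These are the comparisons in which the synthesis genes were higher. Of 10 immediate-early genes that tissue dissociation can induce, 7 were lower in CD103+ and 6 in double-positive than in CD11b+ DCs of lymph node, 8 in CD103+ than in CD11b+ DCs of lamina propria and 6 in lymph node over the mean. Their summed level was 6780 to 21679 CPM in lamina propria and 5763 to 15809 in lymph node. Of 7 tested B cell genes 7 were higher in lymph node over the mean, with a summed level of 9.39 to 50.7 CPM in lamina propria and 38.4 to 175 in lymph node. The part of these other cells and states in the differences of the 8 genes was not tested.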

How the data were processed

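Gene expression was measured by RNA-seq (SMART-seq v4, HiSeq4000, read pairs of 75 bases) in 18 libraries of 6 groups. The authors deposited raw read counts per gene, with no normalization, and the submitters' processing notes name FastQC 0.11.7, STAR 2.6 and GRCm38. Other counting settings for these libraries are not given in the sources used here. For the study's own DC libraries unique alignments were counted without regard to strand, so reads of overlapping genes and near-identical copies may be lost or misassigned. The 54232 identifiers were matched to symbols for 54079, positions and exon lengths came from GENCODE vM21, and promoters came from the RefSeq table of GRCm38.p6.

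Counts were tested in 1 fit of all 18 libraries with edgeR 4.0.16 (R 4.3.3) by glmQLFit and glmQLFTest, with TMM scaling, filterByExpr (17074 genes left) and a mean per group. P-values were adjusted by Benjamini-Hochberg over all genes tested, a gene was called at an adjusted p under 0.01 and a fold change over 2 (no fold limit for the F test of the tissue-by-subset interaction), and SE is the absolute log2 fold change divided by the square root of F. As the labels do not say that replicates were separate animals, p-values measure the spread between libraries only. Libraries held 23574292 to 46901985 counts, and counting error matters most for the genes with fewest reads, above all Abca1. The fit was tested on simulated data.

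The alternatives were DESeq2 size factors, total counts, no or a stricter filter (at least 100 counts in 3 libraries), an adjusted p under 0.05, DESeq2 1.42.0, only the libraries compared, replicate blocks, each library left out, both libraries with Xist and Ddx3y left out and, for arm levels, a pseudocount of 0.1 and each gene left out. Replicate numbers come from the labels. Same-numbered lamina propria libraries deviated together (9 correlations of 0.124 to 0.378). In lymph node the 9 correlations were weaker, at 0.00113 to 0.350, with a median of 0.096 beside -0.051 for different numbers. Between tissues the 27 same-numbered correlations ran from -0.200 to 0.156. Blocked values are given beside results whose call they change.

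The 8 genes, the lists and the tests were chosen with earlier results of these data known. Other genes were named by rule: in each sterol list the up to 4 genes with the largest called mean tissue effect and at least 10 CPM in a group, 7 pathway genes whatever their values, and the 5 genes most like each arm. Some genes that this rule names are not reported here by name, but they stay in the counts of their lists. The tables hold 0 columns of other samples.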

Additional observations from a re-analysis of the deposited data

Results flagged for a closer look

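The results below are those whose tissue effect, lymph node against lamina propria, differed between the 3 DC subsets by the interaction F test (edgeR, adjusted p under 0.01). The F test does not say which subsets differ, and 31.5% of all genes tested passed it. In the synthesis arm it called Hmgcs1 (adjusted p = 4.1e-06), Idi1 (8e-08), Sqle (1e-06) and Insig1 (0.0089), and in the efflux arm Abcg1 (5.7e-07). The Insig1 call was lost in 16 of 18 fits that each left out 1 library. The Hmgcs1 and Sqle differences were negative in CD11b+ and positive in CD103+ DCs, and Idi1 was higher in lymph node by 2.58 in CD103+ DCs beside -0.36 in CD11b+ DCs. The Abcg1 difference was 1.36 in CD11b+ and 5.00 in CD103+ DCs.

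Of the other sterol synthesis genes named, Dhcr7 (adjusted p = 0.0065) passed. For SREBP control and uptake, Stard4 (0.0016) and Srebf2 (0.0083) passed. Among LXR partners and targets they were Mylip (7.2e-06), Pltp (9.3e-06), Scd2 (0.0035), Arl4c (2.7e-08) and Nr1h2 (1.1e-05). Pltp was at -4.09 ± 0.34 in double-positive and 0.41 ± 0.42 in CD103+ DCs, and Mylip was at 3.51 ± 0.20 in double-positive DCs, its largest value. Further from the 8 genes, Cyp7b1 (5.4e-05), Soat1 (0.0017), Scarb1 (2.2e-05), Lipa (0.00055), Nceh1 (5.4e-05), Elovl6 (0.0022), Fads1 (0.00015) and Fasn (4e-04) passed. Macrophage, T cell and DC maturation genes also differed between these groups, and their part in these results was not tested.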

How the results depend on the processing

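Over all alternatives no call of the 8 genes reversed. Of the values for single genes and comparisons, 2337 kept their side of the threshold, 23 gained a call and 55 lost it. The replicate block within tissue added the call of Fdps between lamina propria double-positive and CD11b+ DCs (adjusted p = 0.0062), and either replicate block removed the interaction call of Insig1 (adjusted p = 0.011). No other call of the 8 genes changed under the pairing. The number of the 8 called between lamina propria double-positive and CD11b+ DCs was 3, fell to 1 when only those 6 libraries were fitted and ranged from 1 to 4 with each library left out (1 without lamina propria CD11b+ replicate 2 or double-positive replicate 1 or 3). Between lamina propria double-positive and CD103+ DCs it ranged from 1 to 2, with 2 (Insig1 added) without lamina propria double-positive replicate 2. All genes called for that first comparison numbered 821, and 1289 at an adjusted p under 0.05 and 506 with only those libraries. Over the mean tissue effect 5590 genes were called, and 3651 with the stricter filter, which leaves fewer genes to test. By DESeq2, Abca1 was also called between lymph node CD103+ and CD11b+ DCs (adjusted p = 0.0033) and in the interaction (0.0015), and Fdps between lamina propria double-positive and CD11b+ DCs (0.0012).

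The difference between arm levels (synthesis minus efflux) depended on its genes. With a pseudocount of 0.1 it became -0.84 in lamina propria CD11b+, 3.12 in lamina propria CD103+, -3.11 in lymph node CD11b+, 0.16 in lymph node CD103+ and -1.58 in lymph node double-positive DCs. In lamina propria CD11b+ DCs it was -1.02 without Abcg1 and -0.14 without Nr1h3. In lamina propria CD103+ DCs it was 2.33 without Idi1, 2.50 without Abca1 and 1.81 without Nr1h3. In lymph node CD11b+ DCs it was -2.52 without Sqle, -2.72 without Insig1, -3.12 without Abcg1 and -2.09 without Nr1h3. In lymph node CD103+ DCs it was 0.023 without Idi1, 0.43 without Fdps, 0.46 without Insig1, 0.00 without Abca1, 1.41 without Abcg1 and -0.53 without Nr1h3. In lymph node double-positive DCs it was -1.49 without Abca1. Depth limits Abca1, with 0 to 18 reads per library in lamina propria CD103+ and double-positive DCs.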
